A study of Oryza sativa with 6 samples.

Results

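The enzymes of the chlorophyll branch were read in shoot tips of rice seedlings that lack the RNA-dependent RNA polymerase OsRDR1 and in their sibling wild type (WT). The rule picks its members by gene name, but the names were chosen with earlier results of these data known. It holds PORA and PORB, which reduce protochlorophyllide, CHLH, CHLD and CHLI, the subunits of Mg-chelatase, CHLG, which attaches the phytol tail, and CAO, which makes chlorophyll b. Of the 10 enzyme names looked for, 7 had a probe set of their own on the array, and these 7 genes were read on 8 of the 57258 probe sets tested. CHLH was read on a pair of probe sets and each other gene on 1. CHLM, CRD1 and DVR, which act between Mg-chelatase and the chlorophyllide stage, were not analysed here, because the tables used to name probe sets hold none for them.

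Chlorophyll and heme share a pathway up to protoporphyrin IX. Mg-chelatase inserts magnesium into this ring and so commits it to chlorophyll, while ferrochelatase inserts iron and leads to heme and the bilins. Flowering plants reduce protochlorophyllide only in light, through the POR enzymes, so a seedling raised in the dark turns green after it is moved to light. In rice, PORA is known for its part in young seedlings that leave darkness, and PORB for its part through later leaf development.

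The homozygous mutant *Osrdr1* carries a Tos17 retrotransposon in the second exon of OsRDR1 in the japonica cultivar Hitomebore. It comes from 1 insertion line. Mutant and WT segregated from the same heterozygous plants after repeated selfing, so both groups share this background. Seeds of both genotypes were kept wet without light at 28 °C for 2 days. The seedlings then spent close to 48 h at 26 °C in a greenhouse, where each day had 16 h of light and 8 h of night. Each genotype was represented by 3 biological replicates, with 1 Affymetrix Rice Genome Array each. The sources used here do not state how many seedlings made up a replicate.

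Every value below is a log2 value as the authors deposited it, after RMA had corrected the background, equalized the arrays and combined the probes of a probe set. The medians of the arrays lay between 4.87 and 4.96, and no detection calls were used here. Genotypes were compared with limma over all 57258 probe sets, and a probe set was called at a Benjamini-Hochberg adjusted p under 0.05. By this rule 1.57% of all probe sets were higher in *Osrdr1* and 0.506% were lower. WT arrays differed among themselves more than *Osrdr1* arrays did. Between 86 and 477 probe sets lay over 2-fold away from the mean of their sister arrays in WT, most of them in WT replicate 3, and 23 to 29 did so in *Osrdr1*. OsRDR1 could not be matched to a probe set by the tables used here, which leaves the genotype labels of the arrays unchecked by its expression. The paper reports from RT-PCR that mutant shoot tips had lost this expression completely.

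Of the 8 probe sets of the chlorophyll branch, 2 were called higher in *Osrdr1*, 0 were called lower (0 at an unadjusted p under 0.05) and 6 were not called. The called ones read PORA and CAO. PORA rose 1.65-fold and CAO 1.58-fold. The other 5 genes did not pass the test on any probe set, with log2 differences between -0.22 and 0.55.

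PORA was the member with the largest difference. In *Osrdr1* its log2 values were 11.99, 12.21 and 12.15, and in WT they were 11.32, 11.33 and 11.53 (NCBI gene 4337415). The lowest mutant array lay above the highest WT array. The log2 difference was 0.72 with a standard error of 0.10 (95% interval 0.49 to 0.95, adjusted p = 0.0201 from limma). The means were 12.12 ± 0.12 in *Osrdr1* and 11.39 ± 0.12 in WT (SD, n = 3 each).

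CAO, the oxygenase that turns chlorophyll a into chlorophyll b for the light-harvesting antenna, had log2 values of 10.04, 10.15 and 10.21 in *Osrdr1* and 9.47, 9.52 and 9.44 in WT (NCBI gene 4349433). The WT arrays lay close together and well below all mutant arrays. The log2 difference was 0.66 with a standard error of 0.08 (95% interval 0.47 to 0.84, adjusted p = 0.0157 from limma). The means were 10.13 ± 0.09 in *Osrdr1* and 9.47 ± 0.04 in WT (SD, n = 3 each). Rice is known to carry a neighbouring copy of CAO, and the probe set may take up signal from both copies.

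PORB, the partner of PORA, moved little. Its log2 values were 11.85, 11.89 and 11.86 in *Osrdr1* and 11.61, 11.79 and 11.74 in WT (NCBI gene 4349004). The groups did not overlap, but the gap between them was narrower than the range within WT. The log2 difference was 0.15 (standard error 0.08, 95% interval -0.03 to 0.34, adjusted p = 0.442 from limma). The difference between genotypes was larger for PORA than for PORB by 0.57 on the log2 scale. This contrast was picked with the values already known. PORA minus PORB ran from 0.14 to 0.32 on the *Osrdr1* arrays and from -0.46 to -0.21 on the WT arrays (two-sided exact permutation p = 0.1, the smallest that 3 against 3 arrays can give). By the naming of the array, the suffix of the PORB probe set marks probes that can also bind related transcripts.

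**Figure D1:**
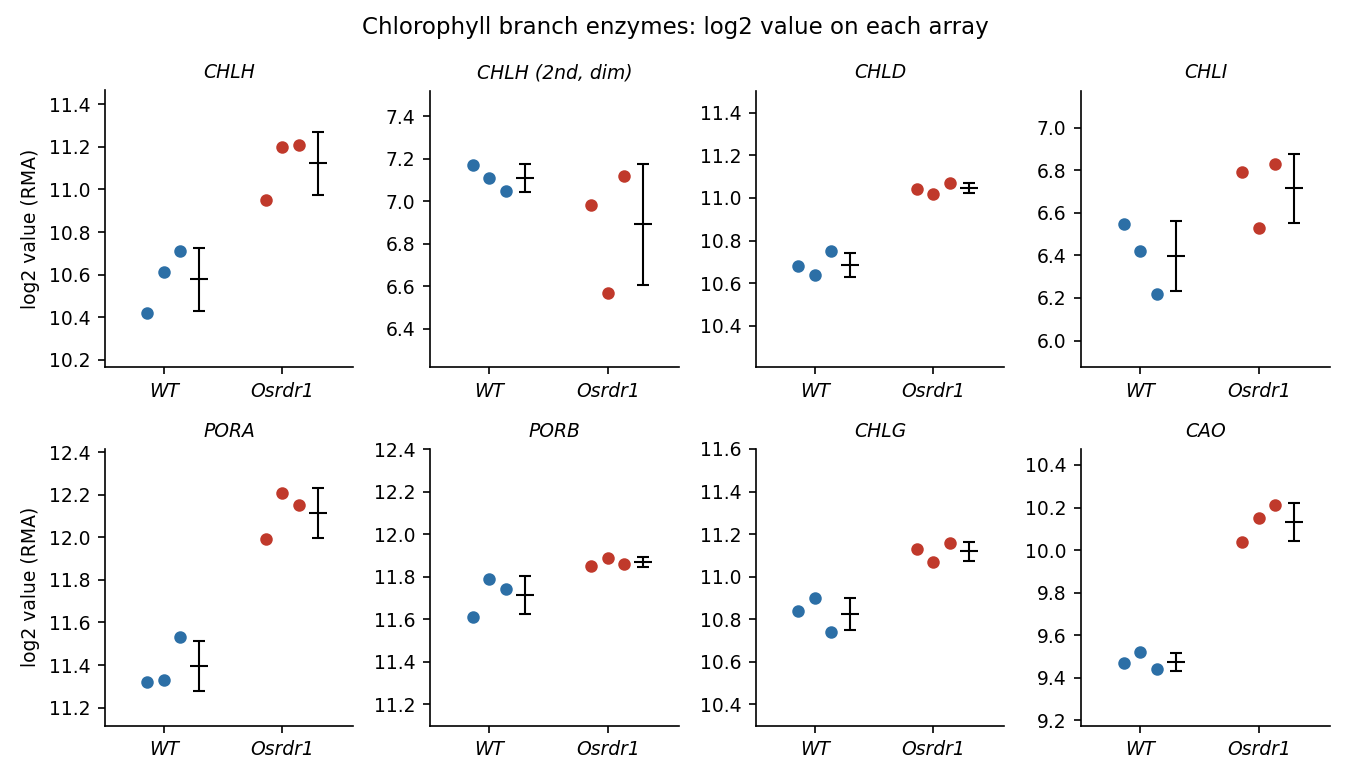
Log2 value of each chlorophyll branch probe set on each array (vertical axis, RMA; the range shown is equally wide in every panel) in WT (blue) and *Osrdr1* (red), with the mean and SD of 3 arrays as black bars. PORA and CAO show the widest gaps between the genotypes, with differences of 0.72 and 0.66, while the dim probe set of CHLH and that of CHLI overlap.

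The subunits of Mg-chelatase did not pass the test. The largest difference among them was that of CHLH, the big subunit that binds protoporphyrin IX. Its log2 values on the bright probe set were 10.95, 11.20 and 11.21 in *Osrdr1* and 10.42, 10.61 and 10.71 in WT (NCBI gene 4332690). All mutant arrays were above all WT arrays, yet *Osrdr1* replicate 1 lay about as near to WT replicate 3 as to the other mutants. The log2 difference was 0.55 (standard error 0.11, 95% interval 0.28 to 0.81, adjusted p = 0.0596 from limma).

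On the dim probe set of CHLH the difference was negative and was not called. Its log2 values were 6.98, 6.57 and 7.12 in *Osrdr1* and 7.17, 7.11 and 7.05 in WT, with a log2 difference of -0.22 (standard error 0.14, 95% interval -0.55 to 0.11, adjusted p = 0.58 from limma). The groups overlapped, and *Osrdr1* replicate 2 alone was well below the rest. Without it the log2 difference was -0.06, and without *Osrdr1* replicate 3 it was -0.33. The difference on the bright probe set exceeded that on the dim one by 0.76 on the log2 scale, with no overlap between the arrays of the genotypes (two-sided exact permutation p = 0.1, the smallest possible, again picked with the values known). By the naming of the array, the suffix of the dim probe set marks probes shared by several transcripts.

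CHLD, a smaller subunit, had log2 values of 11.04, 11.02 and 11.07 in *Osrdr1* and 10.68, 10.64 and 10.75 in WT (NCBI gene 4334537). Both groups were tight and apart from each other. The log2 difference of 0.36 (standard error 0.07, 95% interval 0.19 to 0.53) had an adjusted p of 0.0556 from limma, just outside the threshold. CHLI, the subunit with ATPase activity that works with CHLD, was read on a probe set much nearer to the median of the arrays, at 6.79, 6.53 and 6.83 in *Osrdr1* and 6.55, 6.42 and 6.22 in WT (NCBI gene 4333259). Here *Osrdr1* replicate 2 fell just below WT replicate 1. The log2 difference was 0.32 (standard error 0.12, 95% interval 0.04 to 0.59, adjusted p = 0.273 from limma).

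CHLG, chlorophyll synthase, stands at the end of the branch. Its log2 values were 11.13, 11.07 and 11.16 in *Osrdr1* and 10.84, 10.90 and 10.74 in WT (NCBI gene 4338498). The genotypes did not overlap, and the log2 difference was 0.29 (standard error 0.08, 95% interval 0.11 to 0.47, adjusted p = 0.114 from limma).

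Seen together, 7 of the 8 probe sets had a positive log2 difference and 1 a negative one, with a median of 0.34, where the median over all probe sets tested was -0.01. All 3 mutant values were above all 3 WT values on 6 of the 8, against 10.0% of all probe sets. At an unadjusted p under 0.05, 6 of the 8 were higher, against 8.16% of all probe sets. Read by gene on the brightest probe set, 2 of 7 genes were called higher, against 3.44% of all 17905 genes with a probe set of their own, and 6 of 7 had all mutant arrays above all WT arrays, against 19.4%. The genes of one pathway share their arrays and their tissue, so they are not independent readings of the genotype. Within a genotype the member probe sets varied little, with a median SD of 0.09 on the log2 scale (range 0.04 to 0.21), where the median over all probe sets was 0.13. Most members lay far above the array medians, and the spread was not compared at like brightness.

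The enzymes that feed the branch had positive differences, and none of them passed the test. The 4 measured genes upstream of Mg-chelatase had log2 differences between 0.12 and 0.30 with a median of 0.27. GSA, the aminotransferase that makes 5-aminolevulinic acid, had log2 values of 12.10, 12.15 and 12.14 in *Osrdr1* and 11.78, 11.84 and 11.85 in WT, with a log2 difference of 0.30 (adjusted p = 0.0807 from limma). These arrays were separate by genotype. PPOX1, the oxidase that makes protoporphyrin IX, differed by 0.28 (adjusted p = 0.0898 from limma), HEMB, which makes porphobilinogen, by 0.27 (adjusted p = 0.202 from limma), and HEMD, which closes the ring, by 0.12 (adjusted p = 0.533 from limma). A dim probe set of GSA, below the array medians at 3.67 to 4.22, gave 0.17 (adjusted p = 0.634 from limma). CHLP, the geranylgeranyl reductase that supplies phytol to CHLG, had log2 values of 12.24, 12.23 and 12.32 in *Osrdr1* and 11.89, 11.98 and 12.07 in WT, a log2 difference of 0.28 (adjusted p = 0.142 from limma).

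Of the 13 other pathway genes measured, 2 were called higher, against 3.44% of all genes read on their brightest probe set. None was called lower. At an unadjusted p under 0.05, 10 were higher and 0 were lower. The share of 8.16% higher is over all probe sets, not 1 per gene. In the fit with 1 probe set per gene, 2992 of 17905 genes were higher at this p, 10 of the 13 among them. On 11 of the 13 all mutant arrays were above all WT arrays, against 19.4% of all genes. Their median log2 difference was 0.28, and both called genes act in chlorophyll b turnover and breakdown. NYC1, a chlorophyll b reductase that runs opposite to CAO, rose from 8.33, 8.17 and 8.27 in WT to 8.94, 8.92 and 9.05 in *Osrdr1*. The mutant arrays lay well above the WT arrays, with a log2 difference of 0.71 (standard error 0.08, adjusted p = 0.0136 from limma). SGR, a stay-green gene whose Arabidopsis relative takes magnesium out of chlorophyll a, had 8.62, 8.83 and 8.62 in *Osrdr1* and 8.16, 7.67 and 8.00 in WT on the brighter of its probe sets, a log2 difference of 0.75 (standard error 0.14, adjusted p = 0.0442 from limma). Its other probe set gave a log2 difference of 0.86 and was not called (adjusted p = 0.119 from limma). NOL, the partner of NYC1, differed by 0.41 on the brighter and 0.46 on the dimmer probe set (adjusted p = 0.071 and adjusted p = 0.0871 from limma), and RCCR1, which acts late in breakdown, differed by 0.17 (adjusted p = 0.576 from limma).

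On the side of heme and the bilins, HO1, the heme oxygenase that leads to the phytochrome chromophore, had a log2 difference of 0.22 (adjusted p = 0.26 from limma). HO2, a relative of HO1, had 10.15, 10.11 and 10.13 in *Osrdr1* and 10.13, 10.11 and 10.18 in WT, a log2 difference of -0.01 (95% interval -0.17 to 0.15, adjusted p = 0.967 from limma). Its groups overlapped fully, and its sign turned to 0.02 with arrays centred on their medians.

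The transcription factors GLK1 and GLK2, which switch on chlorophyll and antenna genes in developing chloroplasts, were not called. GLK1 had log2 values of 10.25, 10.16 and 10.14 in *Osrdr1* and 9.44, 9.14 and 9.82 in WT. Its difference of 0.72 was close to that of PORA, but the WT arrays were widely spread (SD 0.34, n = 3), and the adjusted p was 0.0767 from limma. GLK2 differed by 0.37 on its brightest probe set (adjusted p = 0.122 from limma) and by 0.04 to 0.13 on its other 3.

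**Figure D2:**
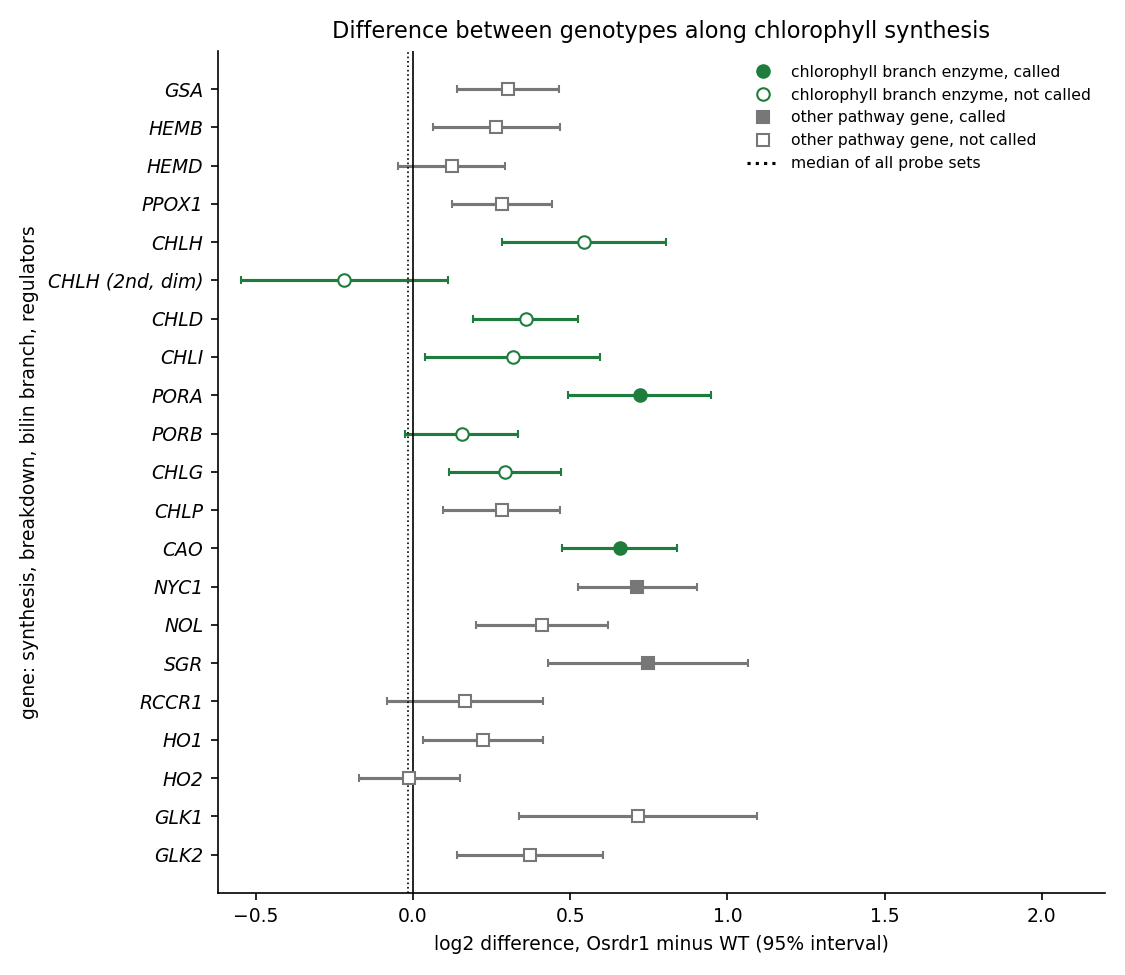
Log2 difference between *Osrdr1* and WT (horizontal axis, with the 95% interval from limma) for the chlorophyll branch enzymes (green circles) and the other tetrapyrrole genes on their brightest probe sets (grey squares), with filled symbols for those called. Only PORA, CAO, NYC1 and SGR are filled, and the dim probe set of CHLH and HO2 have the only negative values, -0.22 and -0.01.

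**Figure D3:**
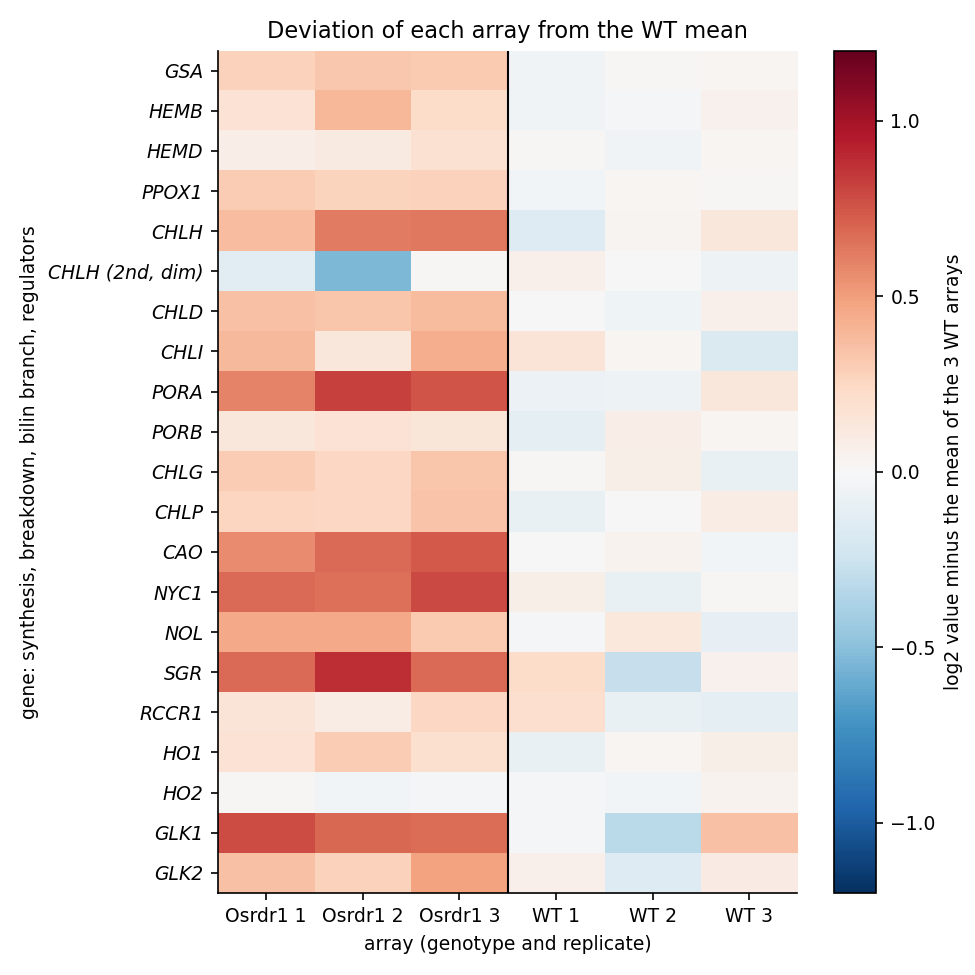
Deviation of each array (columns, 3 *Osrdr1* and 3 WT) from the mean of the WT arrays on the log2 scale (colour) for the same genes (rows). All mutant columns are red for PORA, CAO, NYC1, SGR and GLK1, while WT replicates 2 and 3 depart from the WT mean in opposite directions for GLK1.

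Some markers of photosynthetic tissue, dividing cells and the shoot meristem were also called in the same contrast. In whole shoot tips, more cells of a type and more RNA per cell cannot be told apart. All 5 measured leaf photosynthesis markers had all mutant arrays above all WT arrays, against 19.4% of all genes read on their brightest probe set. Of the 5, 3 were called higher, against 3.44% of all genes, with a median log2 difference of 0.52 over the 5. These 3 were RBCS, the small subunit of Rubisco (0.52 on its brightest probe set), LIR1 (0.98) and NDH-M (0.93). The summed linear level of the 5 markers, on a log2 scale, was 15.18 to 15.22 in *Osrdr1* and 14.68 to 14.91 in WT. None of the 5 was below the array medians on all arrays, and RBCS was at 13.04 or more on every array of both genotypes.

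All 8 measured markers of dividing cells had negative log2 differences (median -0.34). Of these, 2 were called lower, the mitotic kinase CDKB2-1 (-0.51) and the cyclin CYCB2-1 (-0.46), against 0.506% of all probe sets. The share of genes called lower on their brightest probe set was not computed. The summed level of the 8 on the log2 scale was 13.73 to 13.87 in *Osrdr1* and 13.99 to 14.08 in WT. Of the 8, 1, a second gene named CYCB1-1, was below the median on all arrays. Of the 6 measured genes listed as shoot meristem markers, 5 had negative log2 differences (median -0.47 over the 6). OSH71 was called lower (-2.43), against 0.506% of all probe sets. OSH45, which was listed with these genes, was called higher (0.67), against 3.44% of all genes read on their brightest probe set. OSH1 had a log2 difference of -2.48 on its brightest probe set, where the genotypes overlapped (adjusted p = 0.162 from limma), and of -1.83 on the other, where all mutant arrays were lower (adjusted p = 0.0617 from limma). OSH6 differed by -0.78, with all mutant arrays below all WT arrays (adjusted p = 0.101 from limma). The summed level of the 6 genes overlapped (9.59 to 9.65 in *Osrdr1*, 9.45 to 10.17 in WT on the log2 scale). OSH45, at 8.51 to 9.38, was the brightest of them in this sum on every array. With OSH45 called in the other direction, this sum does not show whether the 5 genes with negative differences separated as a group. Their sum without OSH45 was not computed. On the brightest probe sets OSH71 (4.42 to 5.84 against 6.91 to 8.26 in WT) and OSH6 were apart by genotype. OSH1, OSH3 and OSH43 overlapped. OSH43 alone was below the median on all arrays.

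Of 8 measured seed endosperm genes, 5 were below the array medians on all arrays. GLUA2, a glutelin, was called higher (0.70), with 6.26 to 6.67 in WT and every mutant array above that range. It was the only 1 of the 8 called, against 3.44% of all genes read on their brightest probe set. The other GLUA2 probe set, below the array medians at 4.52 to 4.77, gave -0.11 and overlapped (adjusted p = 0.641 from limma). SBE1, a starch branching enzyme, was the brightest of these 8 genes at 9.72 to 9.98 and was not called (log2 difference 0.02). The summed level was 10.11 to 10.28 in *Osrdr1* and 10.00 to 10.20 in WT on the log2 scale. None of 4 low oxygen genes was called (1 at an unadjusted p under 0.05), but WT replicate 2 stood apart with a log2 value of 8.55 for PDC1, a pyruvate decarboxylase, where the other arrays had 3.74 to 4.13. The summed level of these 4 was 11.94 to 12.01 in *Osrdr1* and 12.09 to 12.59 in WT. Another gene named PDC, at 11.87 to 12.32, was the brightest of them on every array, and the sum mostly followed it. All mutant arrays of that gene were below all WT arrays (log2 difference -0.30, adjusted p = 0.168 from limma). ADH2, the next brightest, had 6.23 to 9.36. The part of these markers in the PORA and CAO results was not tested. Without WT replicate 2 the log2 difference was 0.69 for PORA and 0.68 for CAO, and neither was called (adjusted p = 0.0817 and 0.0592 from limma).

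Among 2452 named genes outside the set, those whose log2 values ran most like PORA over the 6 arrays were NADP-ME2, a malic enzyme (Pearson's r = 0.996, log2 difference 0.40), CpSecY, a translocase subunit of the chloroplast (r = 0.995, 0.43), and HMA5, a metal transporter (r = 0.994, 0.33). For CAO they were CRSH1, a plastid enzyme that makes guanosine tetraphosphate (r = 0.992, log2 difference 0.37), CLA1, the entry enzyme of plastid isoprenoid synthesis (r = 0.992, 0.80), and CCS (r = 0.991, 0.16). Of these 6 genes NADP-ME2 (adjusted p = 0.0475) and CLA1 (adjusted p = 0.0115) were called by limma. Most of such an r reflects the step between the genotypes. On the residuals from the genotype means it was 0.91 to 0.96 for the genes like PORA and 0.70 to 0.93 for those like CAO, values picked from many genes over few arrays. The genes with the highest r on these residuals were PBD1, SDH4 and RBBI3.3 for PORA and Roc7, PHT3 and KSL10 for CAO, and none of them was called. On the log2 values themselves their r was -0.43, -0.28 and 0.81 with PORA and -0.15, -0.64 and 0.76 with CAO. Those for CAO were dim, with genotype means of 3.57 to 3.95, under the lowest array median (4.87).

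**Figure D4:**
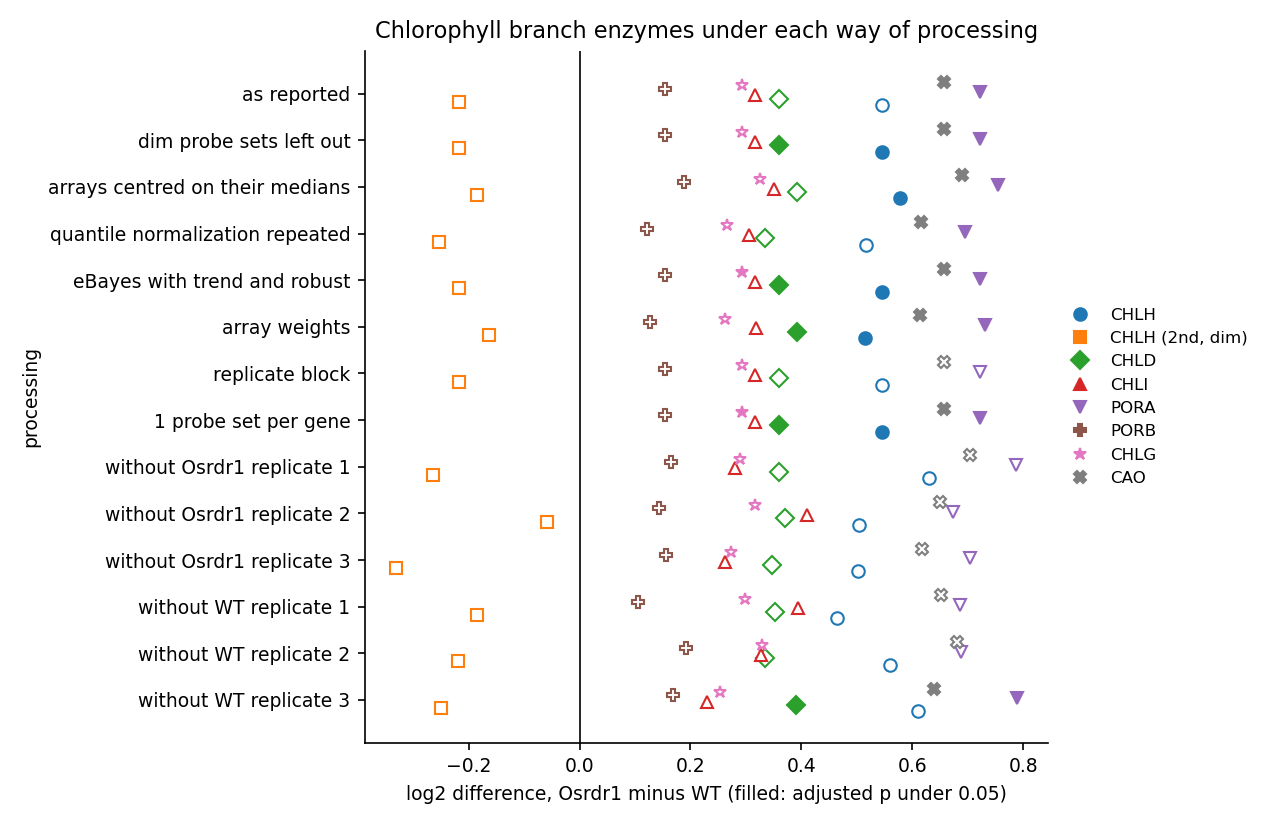
Log2 difference between *Osrdr1* and WT (horizontal axis) for each chlorophyll branch probe set under each way of processing (rows), with filled symbols at an adjusted p under 0.05. The differences keep their sign in every row, from 0.67 to 0.79 for PORA and from 0.61 to 0.70 for CAO, while the calls come and go.

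The calls of PORA and CAO rested on all the *Osrdr1* arrays and on WT replicates 1 and 2, although the sizes of the differences did not. For PORA the adjusted p from limma was 0.0712, 0.0842 and 0.123 without *Osrdr1* replicates 1, 2 and 3, and 0.088 and 0.0817 without WT replicates 1 and 2. For CAO it was 0.0701, 0.0667 and 0.0994 without *Osrdr1* replicates 1, 2 and 3, and 0.0757 and 0.0592 without WT replicates 1 and 2. Without WT replicate 3 both kept their calls (0.0239 and 0.0276), and CHLD (0.0494) and GLK1 (0.0257) were called as well. NYC1 lost its call without any array other than WT replicate 3 (0.0548 to 0.0922), and SGR without any of the 6 (0.0722 to 0.165). With the dimmer probe sets left out, CHLH (adjusted p = 0.0395 from limma) and CHLD (adjusted p = 0.0333 from limma) passed too. With arrays centred on their medians CHLH passed as well (adjusted p = 0.0357 from limma).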

How the data were processed

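Gene expression was measured in shoot tips on 6 Affymetrix Rice Genome Arrays, 3 of *Osrdr1* and 3 of WT, each hybridized with biotin-labelled cRNA from 6 µg of total RNA. The authors deposited 1 log2 value per probe set and array, made with RMA in Affymetrix Expression Console per the submitters' processing notes. The sources used here give no version for it. RMA sets the probe intensities of the arrays to equal distributions before the probes are combined, so a change in total mRNA cannot be seen.

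After 123 control probe sets of 57381 were left out, limma 3.58.1 in R 4.3.3 was fitted across all genes' probe sets (lmFit and eBayes, genotype only, Benjamini-Hochberg adjustment, no filter). The fit was tested on simulated data. Python 3.11.15 with scipy 1.17.1 and matplotlib 3.10.9 did the rest.

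Probe sets were named through the platform annotation and a RefSeq table of rice genes (assembly ASM3414082v1), which gave 22436 probe sets 1 gene. The files name no build, so no coordinates are given, and no sequences were used here. FC1 and GLU1 in the lists matched genes of another kind (a cinnamyl alcohol dehydrogenase and an endoglucanase) and were left out. Named are all member probe sets, all measured genes of the pathway lists, and for PORA and CAO the 3 named genes with the highest r. Members and lists were chosen with earlier results of these data known. The labels call the replicates biological but do not say whether the seedlings were grown apart, so p-values measure only the spread between these samples. The number of arrays limits the precision.

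Alternatives left out dim probe sets (those above the array median on fewer than 3 arrays), changed the scaling, the variance model or the weights of arrays, added the replicate number as a block, left out 1 array, or kept 1 probe set per gene.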

Additional observations from a re-analysis of the deposited data

How the results depend on the processing

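In every alternative run the 8 chlorophyll branch probe sets kept the sign of their difference (the dim probe set of CHLH is not in the fit with 1 probe set per gene), with the median between 0.31 and 0.39 when 1 array was left out. Calls were less stable than sizes. Leaving out 1 array gave 0 to 801 probe sets called higher and 0 to 419 lower over the whole array, 0 to 3 higher and 0 lower among the chlorophyll branch probe sets, and 0 to 2 higher and 0 lower among the 13 other pathway genes. The most calls came without WT replicate 3. Without *Osrdr1* replicates 1 or 3 there were 0 calls in either direction (3756 and 3604 higher and 2589 and 2822 lower at an unadjusted p under 0.05), without WT replicate 1 there were 1 higher and 0 lower (4522 and 2836 at an unadjusted p), without *Osrdr1* replicate 2 there were 140 and 21, and without WT replicate 2 there were 159 and 22. In each of these 5 fits 0 chlorophyll branch probe sets were called, with 5 or 6 higher at an unadjusted p under 0.05.

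With the dimmer probe sets left out, 1432 probe sets were higher and 575 lower, 4 of them chlorophyll branch probe sets and 4 other pathway genes, all higher. With trend and robust in eBayes there were 1847 higher and 849 lower, with 5 and 8. With array weights there were 2399 and 1344, with 4 and 8. With 1 probe set per gene there were 1419 and 648, with 5 and 6. As deposited, 901 were higher and 290 lower. Arrays centred on their medians gave 1041 higher and 180 lower, and repeated quantile normalization gave 963 higher and 626 lower and left 1 other pathway gene called, NYC1. The cause of these shifts was not tested.

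The replicate numbers showed no clear pairing of the arrays. Arrays of the same number correlated at 0.14, -0.15 and -0.27 in their deviations from the genotype means. Arrays of different numbers correlated at -0.35 to 0.35, and whether any of them shared a batch was not tested. With the replicate number as a block limma called 0 probe sets higher and 0 lower (4015 and 2847 at an unadjusted p under 0.05), and so 0 chlorophyll branch probe sets and 0 other pathway genes, with 6 and 9 at an unadjusted p under 0.05. The adjusted p was then 0.091 for PORA and 0.0961 for CAO. The sign of HO2 turned with arrays centred on their medians (0.0217), with array weights (0.013) and without WT replicate 3 (0.00695), and leaving out 1 array moved it between -0.0257 and 0.00695. No detection calls were used, so lower values such as those of CHLI (6.22 to 6.83) have no known distance from background. CHLI and the dim probe set of CHLH lay above the array medians and stayed in the fit with the dimmer probe sets left out.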
